A study of Rattus norvegicus with 10 samples.

Results

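IGHJ3 is one of the joining genes from which the heavy chain of a rat antibody is assembled. The reads that carry it were taken from the heavy chain repertoires of 10 Wistar rats. A productive read, that is an in-frame heavy chain sequence without a stop codon, was counted as IGHJ3 when IGHJ3 was the first joining gene named for it. This gave 392513 of the 1615896 productive reads, or 24.3%, and all 10 animals contributed, with 12516 to 61045 reads each. The other productive reads were assigned to IGHJ2 (875061 reads), IGHJ4 (203603 reads) and IGHJ1 (144719 reads).

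The animals were littermates, and RNA came from unsorted spleen cells (splenocytes) with 1 library per animal. The 5 HuD animals (HuD1 to HuD5) had been immunized with recombinant human HuD, a neuronal RNA-binding protein that is a target of antibodies in paraneoplastic disease. The 5 DNP animals (DNP1 to DNP5) had received keyhole limpet hemocyanin modified with dinitrophenyl (DNP) groups, a small hapten. Both groups received the first dose in complete Freund's adjuvant and 3 boosts in incomplete adjuvant, and no unimmunized animal was measured, so the groups serve as each other's control. In whole spleen RNA, more cells of a clone cannot be told apart from more transcript per cell. Productive reads ranged from 60647 to 259834 per animal. Intervals and limits from read numbers cover counting error only.

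A heavy chain variable domain is made by joining 1 IGHV, 1 IGHD and 1 IGHJ gene in each B cell. The CDR3, the loop between the conserved cysteine of the IGHV gene and the conserved tryptophan of the IGHJ gene, spans both junctions and usually lies at the centre of the antigen binding site. The IGHJ gene supplies the last residues of this loop and the whole of framework region 4 (FR4), which closes the domain. Trimming of gene ends, added nucleotides and, after antigen contact, somatic hypermutation change the CDR3, whereas FR4 is mostly germline encoded.

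The assignment to IGHJ3 rests on these bases, so the CDR3 endings and FR4 are described here and not tested against other genes. The most frequent forms over the pooled IGHJ3 reads of all animals are shown because they identify the gene, with the residues in one-letter code and the last 4 residues of the CDR3 given before FR4.
IGHJ3 CDR3 ending, rank 1: WFAY
IGHJ3 CDR3 ending, rank 2: GFAY
IGHJ3 CDR3 ending, rank 3: PFAY
IGHJ3 CDR3 ending, rank 4: WFTY
IGHJ3 CDR3 ending, rank 5: RFAY
IGHJ3 FR4, rank 1: WGQGTLVTVSS
IGHJ3 FR4, rank 2: WGQGSLVTVSS
IGHJ3 FR4, rank 3: WGRGTLVTVSS
IGHJ3 FR4, rank 4: WGRGALVTVSS
IGHJ3 FR4, rank 5: WGHGTLVTVSS
For the other genes, the most frequent FR4 over pooled reads was as follows.
IGHJ1 FR4: WGPGTMVTVSS
IGHJ2 FR4: WGQGVMVTVSS
IGHJ4 FR4: WGQGASVTVSS
The leading IGHJ3 FR4 made up 88.6% ± 3.46 (SD, n = 10) of the IGHJ3 reads of an animal. The leading FR4 of IGHJ1, IGHJ2 and IGHJ4 was found in 104, 116 and 96 of the 392513 IGHJ3 reads. For IGHJ4 this form is not typical of every animal, as it made up 46.1% ± 39.3 of the IGHJ4 reads (SD, n = 10), from 0.541% to 83.6%. The form WGRGALVTVSS reached 5.66% in 1 animal and was absent from another.

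The CDR3 end of IGHJ3 was far more variable than FR4. The ending WFAY was found in 35.5% ± 6.85 of the IGHJ3 reads (SD, n = 10), GFAY in 10.4% ± 4.86 and PFAY in 7.37% ± 4.27. By the mean of the animals, WFGY came next with 3.51% ± 6.22, ahead of WFTY with 2.21% ± 2.05 and RFAY with 2.15% ± 1.95. It held 20.8% of the IGHJ3 reads of DNP3 and 0.233% to 4.63% in the other 9 animals. Counting back from the last residue, another residue than the leading one stood at position -1 in 12.8%, at position -2 in 26.0%, at position -3 in 11.5%, at position -4 in 47.1% and at position -5 in 78.1% of the reads. The share therefore did not rise evenly towards the junction. The alanine at position -2 was replaced more often than the phenylalanine and the tyrosine beside it. In FR4, the share of other residues was at most 3.56%, at the threonine in position 5, with 3.53% at the glutamine in position 3.

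**Figure D1:**
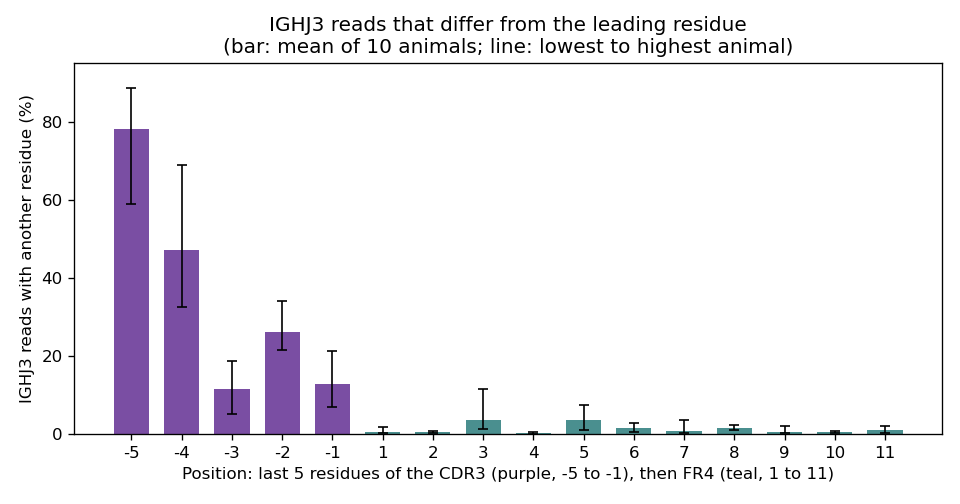
Share of IGHJ3 reads (%, y axis) with another residue than the leading one at the last 5 CDR3 residues (-5 to -1) and the 11 FR4 residues (1 to 11). Bars are means of 10 animals and lines run from the lowest to the highest animal. The CDR3 positions range from 11.5% to 78.1% and the FR4 positions stay at or below 3.56%.

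Counted once for each clonotype, here a combination of IGHV gene and CDR3 residues in an animal, the leading replacement of the alanine at position -2 was aspartate, in 8.57% of the IGHJ3 clonotypes, whereas over reads it was threonine, in 5.15%. The residues DY at the end of a CDR3 are typical of IGHJ2, whose most frequent last 6 residues were GYYFDY. Of the unique IGHJ3 CDR3 of an animal, 9.28% ± 2.31 (SD, n = 10) ended in DY, and of these 60.8% ± 9.28 were read more often with another IGHJ gene in the same animal. For CDR3 ending in FAY this share was 0.853% ± 0.234. Over all IGHJ3 reads, 2.17% ± 0.744 belonged to a CDR3 that another gene led, and IGHJ2 was that gene for 95.7% of them. The part of reads joined or assigned in error in this was not tested. An alternative in which each CDR3 took its most frequent genes in the animal was therefore calculated for each comparison.

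IGHJ3 was the gene with the highest share after IGHJ2 in 9 of the 10 animals, and in DNP5 it was level with IGHJ4 (20.7% and 20.8%). It made up 23.1%, 25.0%, 20.6%, 23.5% and 20.7% of the productive reads of DNP1 to DNP5. In HuD1 to HuD5 the share was 29.2%, 24.2%, 25.8%, 21.3% and 26.1%. The groups overlapped, since HuD4 lay below 3 of the 5 DNP animals. IGHJ2 always led, with 48.9% to 62.3%, and the remaining genes were lower, with 12.4% ± 4.36 for IGHJ4 and 8.97% ± 2.27 for IGHJ1 (SD, n = 10).

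**Figure D2:**
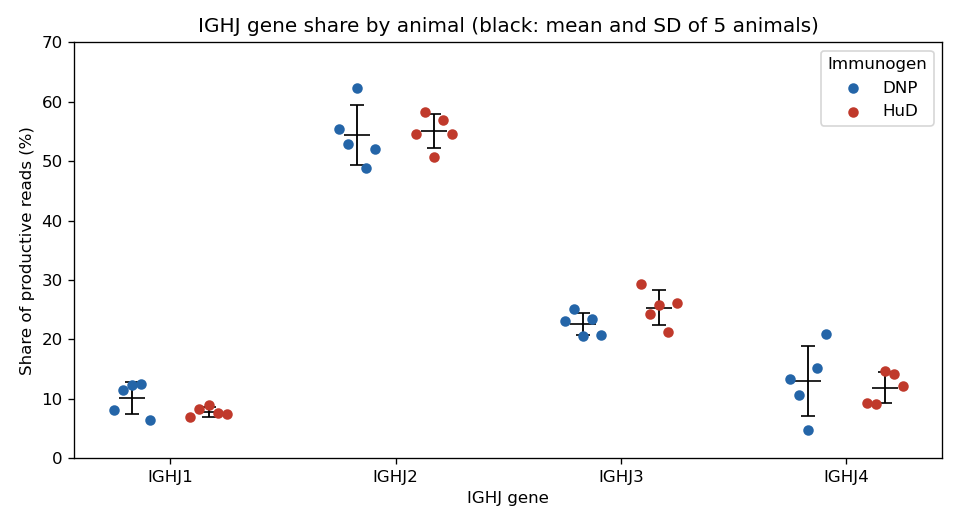
Share of productive reads (%, y axis) of each IGHJ gene (x axis) in the 5 DNP animals (blue) and the 5 HuD animals (red), with the mean and SD in black. IGHJ3 lies between 20.6% and 29.2% in all animals, below IGHJ2 throughout.

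The study asks how far animals given the same antigen build similar antibodies, which for IGHJ3 becomes a comparison of HuD and DNP animals. The mean IGHJ3 share was 25.3% ± 2.89 in HuD and 22.6% ± 1.89 in DNP animals (SD, n = 5 each), a difference of 2.73 percentage points that did not pass the exact permutation test (two-sided, p = 0.119, adjusted p = 0.298 over 5 comparisons). The unadjusted result depended on HuD4, since without it the difference was 3.74 points (exact permutation p = 0.0317, unadjusted). With only the reads that had at least 2 sequenced copies, it was 7.50 points (exact permutation p = 0.0317, unadjusted). Alternatives were not adjusted over the 5 comparisons. The other 4 measures compared between the antigens did not pass the test either. The share of the leading FR4 was 87.2% ± 3.36 in HuD and 90.0% ± 3.32 in DNP animals (exact permutation p = 0.230), and that of the ending WFAY 37.2% ± 7.35 and 33.8% ± 6.66 (exact permutation p = 0.468). CDR3 length and clonotypes with 1 read are given below.

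CDR3 loops with IGHJ3 were longer than those with IGHJ2 and shorter than those with IGHJ1 and IGHJ4. The mean length over reads was 12.3 ± 0.504 residues for IGHJ3 (SD, n = 10), 11.04 ± 0.502 for IGHJ2, 12.9 ± 0.731 for IGHJ4 and 13.7 ± 0.632 for IGHJ1. Set against all other reads of the same animal, IGHJ3 loops were 0.639 residues longer, in 9 of 10 animals (exact sign-flip permutation test, two-sided, p = 0.00586). The exception was DNP2, with 12.2 residues for IGHJ3 and 12.5 for the others. Against single genes, the difference was 1.25 residues to IGHJ2 (exact sign-flip permutation p = 0.00195), -0.646 to IGHJ4 (exact p = 0.0176) and -1.36 to IGHJ1 (exact p = 0.00195). The other reads are mostly IGHJ2, so the pooled difference has the direction of IGHJ2.

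Part of a loop's length is fixed by the germline end of the joining gene. When the residues that matched the most frequent ending of the read's own gene were removed, 9.67 ± 0.500 residues remained with IGHJ3 and 8.86 ± 0.386 with the other genes (SD, n = 10). The difference was 0.812 residues, in 10 of 10 animals (exact sign-flip permutation p = 0.00195, the smallest these 10 animals can give, adjusted p = 0.0026 over 4 comparisons). It was -0.203 residues when IGHJ3 was set against IGHJ4 alone (exact sign-flip permutation p = 0.416). The ending removed from IGHJ4 reads was YYVMDA, which was not typical of every animal. VMDA ended 1.13% to 71.4% of the IGHJ4 reads of an animal and AMDA 0.201% to 57.4%. The part of this choice of ending in the -0.203 residues was not tested. Matching ran back from the last residue to the first replaced one, so the number removed differed between genes. In IGHJ3, 12.8% of reads lost no residue, 21.2% lost 1 and 1.55% lost 6, whereas 37.4% of IGHJ1 reads lost 6. The difference of 0.812 residues therefore includes changes at the end of the joining gene, and their part was not tested. Short loops of at most 7 residues made up 4.75% of IGHJ3 reads and 12.1% of IGHJ2 reads, and long loops of at least 18 residues 1.69% and 1.48%. The most frequent IGHJ3 lengths were 13 (17.3%), 11 (16.7%) and 14 residues (16.4%), with 9.73% at 12 residues. The SD at 13 residues was 10.9 points over animals, and 1 animal had 46.8% of its IGHJ3 reads at that length.

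**Figure D3:**
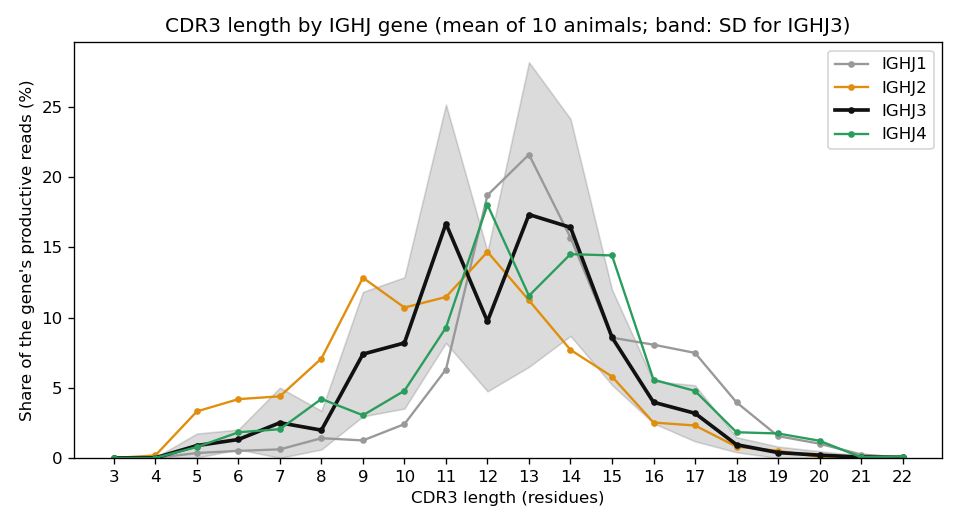
CDR3 length (residues, x axis) against the share of a gene's productive reads (%, y axis), as means of 10 animals for each IGHJ gene, with a grey band of 1 SD for IGHJ3. IGHJ3 lies to the right of IGHJ2, with 4.75% of reads at 7 residues or fewer against 12.1%.

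The IGHJ3 loops of the HuD animals were 12.0, 12.6, 12.0, 13.2 and 13.1 residues long on average (HuD1 to HuD5), and those of DNP1 to DNP5 were 11.9, 12.2, 12.2, 12.2 and 11.6. The groups overlapped and their difference of 0.534 residues did not pass the test (exact permutation p = 0.111, adjusted p = 0.298). The excess of IGHJ3 over the other genes was 0.930 ± 0.335 residues in HuD and 0.349 ± 0.415 in DNP animals (SD, n = 5 each). The test of this difference gave an unadjusted p of 0.0476 (exact permutation, two-sided).

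Inside the loop, after removal of the matching ending, arginine made up 9.24% ± 1.24 of the residues with IGHJ3 and 12.4% ± 1.05 with the other genes (SD, n = 10), and it was lower with IGHJ3 in all 10 animals. Glycine was 14.6% ± 1.87 and 11.7% ± 1.77, higher with IGHJ3 in 8 animals over reads and in 10 over clonotypes. The mean net charge, counting lysine and arginine against aspartate and glutamate, was 0.209 ± 0.172 with IGHJ3 and 0.495 ± 0.109 with the other genes. These are descriptions with no test, since replaced residues from the end of the joining gene remain in the part compared.

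The heavy chain loops with IGHJ3 were joined to the same large IGHV families as the rest of the repertoire, while single genes departed clearly. Genes of the IGHV5 family made up 71.6% of IGHJ3 reads and 68.1% of the other reads, as means of 10 animals. IGHV2 made up 11.04% and 13.4%, IGHV3 6.72% and 12.0%, and IGHV1 6.10% and 1.20%. The 10 most frequent genes with IGHJ3 were IGHV5-25 (9.77%), IGHV5-31 (8.97%), IGHV5-20 (7.91%), IGHV5-7 (7.63%), IGHV5-29 (6.87%), IGHV5-22 (6.28%), IGHV1-43 (5.65%), IGHV5S13 (5.41%), IGHV5S10 (4.15%) and IGHV3-3 (3.54%). None of these 10 passed the test of IGHJ3 against other reads (edgeR quasi-likelihood test with the animal as block, adjusted p from 0.0994 to 0.979). IGHV1-43 was nearest to the threshold and was called higher with IGHJ3 with DESeq2, without the filter, over clonotypes, with the most frequent genes of each CDR3, and without DNP2 or HuD4 (log2 difference 0.89 to 1.62, adjusted p from 0.00105 to 0.0488 with DESeq2 or edgeR). IGHV5S10 was called higher with DESeq2, over clonotypes and without DNP5 (log2 difference 0.46 to 0.86, adjusted p from 0.000716 to 0.0408 with edgeR or DESeq2), and IGHV5S13 over clonotypes (0.24, edgeR adjusted p = 0.0223).

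Of 81 IGHV genes tested, 16 passed the adjusted threshold of 0.05, which is 19.8%, with 4 genes (4.94%) higher and 12 genes (14.8%) lower among IGHJ3 reads. The median log2 difference over the 81 genes was -0.34. By family, 8 of 35 IGHV2 genes were lower and none higher, 2 of 7 IGHV1 genes were higher and none lower, and of 24 IGHV5 genes 1 was higher and 1 lower. Counted over clonotypes instead of reads, 13 of 21 called genes were higher, so the balance of directions depends on the unit.

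IGHV1-57 was higher with IGHJ3 in all animals. It made up 0.277% ± 0.160 of IGHJ3 reads and 0.0479% ± 0.0479 of the other reads (SD, n = 10), with a log2 difference of 3.06 ± 0.64 (SE, edgeR adjusted p = 0.00249). In the 8 animals with at least 50 reads of the gene, IGHJ3 was carried by 38.8% in DNP2, 73.5% in DNP4, 98.1% in DNP5, 75.5% in HuD1, 46.1% in HuD2, 83.7% in HuD3, 53.8% in HuD4 and 30.9% in HuD5. All 8 values lay above the highest IGHJ3 share of any animal over all genes, 29.2%. The largest CDR3 of 1 animal held 10.1% of the IGHJ3 reads with this gene.

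IGHV6-8 gave a similar picture, with 0.429% ± 0.531 of IGHJ3 reads and 0.0799% ± 0.113 of the other reads, higher in 9 of 10 animals, and a log2 difference of 2.40 ± 0.52 (edgeR adjusted p = 0.00297). IGHJ3 was carried by 29.3% to 93.3% of its reads in 9 animals. IGHV5-35 was present with IGHJ3 in 6 animals, DNP2 and all HuD animals, and higher in 5, with a log2 difference of 1.92 ± 0.54 (edgeR adjusted p = 0.0215). It lost the call without HuD2, HuD3 or HuD4 and with limma. The call of IGHV1-52 rests on 1 animal, as all 101 of its IGHJ3 reads came from HuD3, and it was lost with DESeq2 and limma.

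Among the genes that were rarer with IGHJ3, IGHV2-30 made up 0.261% ± 0.239 of IGHJ3 reads and 0.794% ± 0.433 of the other reads, lower in 10 of 10 animals (log2 difference -1.98 ± 0.38, edgeR adjusted p = 0.00249). Only 1.26% to 13.8% of its reads carried IGHJ3. IGHV2-64 (log2 difference -2.52, edgeR adjusted p = 0.00249) and IGHV2-45 (-1.74, edgeR adjusted p = 0.0195) were higher with IGHJ3 in none of the 10 animals, and IGHV2S13 (-2.02, edgeR adjusted p = 0.00798) in 1. However, at least 50 reads of IGHV2-64 were present in only 4 animals, all HuD. At least 50 of IGHV2-45 were present in 6, DNP2 and all HuD animals, so the remaining animals say little. Over clonotypes, IGHV2S13 lost the call. IGHV10-10 (-2.16, edgeR adjusted p = 0.022) was higher in 2 animals and lost the call without DNP3, HuD2, HuD3 or HuD4. IGHV5-41 (-3.67) had 1 IGHJ3 read among 105 and at least 50 reads in 1 animal only, and it lost the call with DESeq2 and limma. IGHV3-1, which was named after its values were seen because it accounts for most of the IGHV3 difference, made up 3.15% ± 3.58 of IGHJ3 reads and 8.43% ± 6.12 of the other reads (edgeR adjusted p = 0.00249).

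**Figure D4:**
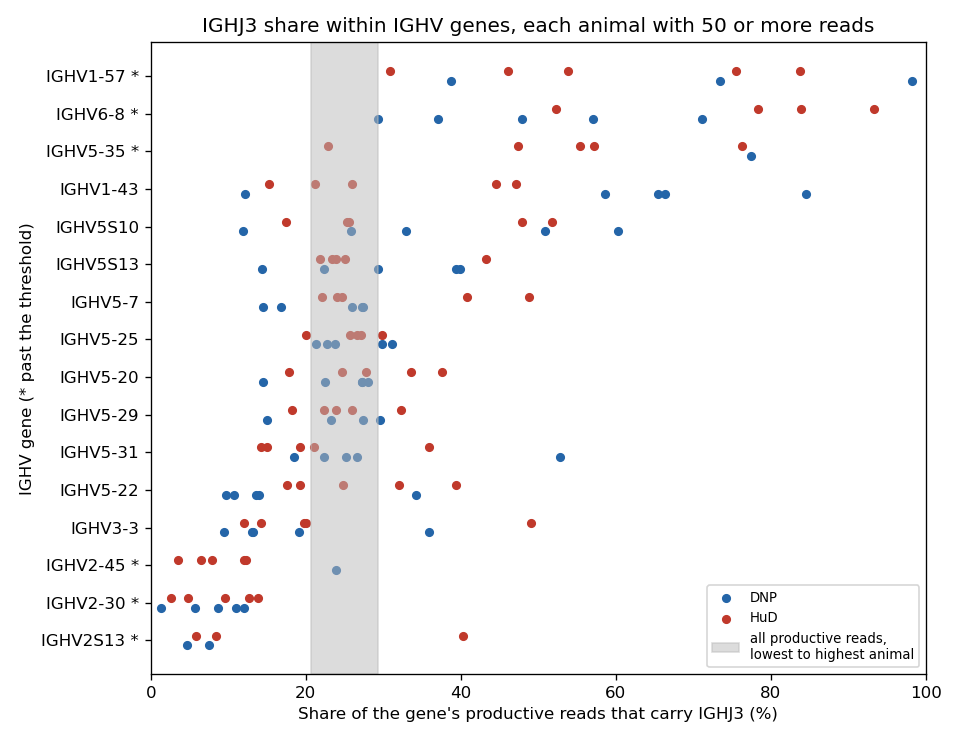
Share of the productive reads of an IGHV gene that carry IGHJ3 (%, x axis), for named genes with at least 50 reads in 5 or more animals, 1 point per animal with at least 50 reads (blue DNP, red HuD). The grey band is the IGHJ3 share over all genes, 20.6% to 29.2%. IGHV1-57 lies above the band in all 8 animals and IGHV2-30 below it in all 10.

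Assignments of IGHV genes carry a limit. More than 1 IGHV gene was listed for 15.3% of the IGHJ3 reads, and these were counted under the gene listed first. In addition, 30.9% ± 10.1 of the IGHJ3 reads of an animal (SD, n = 10) named another IGHV gene than the one most often read with the same CDR3 in that animal. When each CDR3 took its most frequent genes, 20 genes passed the threshold, 5 of them higher.

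IGHD genes showed no called difference. The 5 most frequent with IGHJ3 were IGHD1-11 (14.0% ± 6.30 of reads, SD, n = 10), IGHD1-1 (11.2% ± 14.0), IGHD1-2 (10.5% ± 5.07), IGHD1-12 (9.16% ± 5.93) and IGHD1-4 (7.45% ± 4.92). None of the 33 IGHD genes (0.0%) passed with edgeR or with limma, 6 had an unadjusted p under 0.05 with edgeR, and DESeq2 called 4, all lower with IGHJ3. IGHD1-1 varied most, with 49.5% of the IGHJ3 reads of DNP3 against 2.62% to 16.3% in the other 9 animals.

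Between the antigens, no IGHV gene among the IGHJ3 reads passed the threshold in the edgeR fit (0 of 63 genes, 0.0%), although 13 genes had an unadjusted p under 0.05, and DESeq2 called 5 and limma 13. The count also rested on DNP2, since 14 genes passed without this animal. Over all 63 genes, IGHV5S11 lay nearest to the threshold (log2 difference of HuD to DNP -4.58, edgeR adjusted p = 0.0552). Among the reads with other IGHJ genes, IGHV5S11 passed (-4.71, edgeR adjusted p = 0.00941), as did IGHV3-1 (-2.19, edgeR adjusted p = 0.00941). The gene nearest to the threshold among the 10 most frequent was IGHV1-43. It made up 16.4%, 0.190%, 13.4%, 14.9% and 7.96% of the IGHJ3 reads of DNP1 to DNP5. In HuD1 to HuD5 it made up 0.361%, 0.250%, 0.367%, 0.303% and 2.37%. DNP2 lay below all HuD animals and the other 4 DNP animals above them. The log2 difference of HuD to DNP was -3.98 ± 1.06 (SE, edgeR adjusted p = 0.0615). It passed the threshold with DESeq2 and limma (adjusted p = 0.000193 and 0.0218), with library totals only, without the filter, with the most frequent genes of each CDR3, with the animal number as replicate block, and without DNP2, DNP5 or HuD5. The log2 difference was -1.98 among the reads with other IGHJ genes (edgeR adjusted p = 0.144). A test of whether the pairing of IGHV1-43 with IGHJ3 differed between the antigens did not pass (edgeR adjusted p = 0.603).

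IGHV5-29 stood the other way, with 7.41% to 19.9% of the IGHJ3 reads in HuD animals and 0.0479% to 6.71% in DNP animals, without overlap (edgeR adjusted p = 0.159). The 6.71% was that of DNP2, with 2079 such reads, against 117 in DNP1, 446 in DNP4 and 51 in DNP5. IGHV2-45 and IGHV5-35 were also read with IGHJ3 in DNP2 and the HuD animals only. Whether IGHV5-29 followed the antigen or a split of the animals in the genes they hold was not tested. The antigen comparison of IGHV5-29 changed with the method. It passed with DESeq2 (adjusted p = 0.0249), limma (adjusted p = 0.00251), without the filter, with the replicate block and without DNP2. Among reads with other IGHJ genes the log2 difference was 2.67, next to 3.06 for IGHJ3.

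The genes whose share of the reads without IGHJ3 moved most like the IGHJ3 share over the 10 animals were IGHV5-31 (Spearman's rho 0.79), IGHV2-47 (0.71) and IGHV2-30 (0.66), of the 30 most frequent. Both sides of these values come from the same libraries and depend on the same totals. The 3 genes were picked as the highest of 30 values, which reached down to -0.87 (IGHV5-20), so they are a description with no test. Of the 3, IGHV2-30 was rarely joined to IGHJ3, and IGHV2-47 was also called lower with IGHJ3 (log2 difference -1.38, edgeR adjusted p = 0.0215).

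IGHJ3 clonotypes were somewhat less often singletons than the others. An animal held 9306.1 IGHJ3 clonotypes on average, of which 70.3% ± 2.84 had 1 read, against 73.2% ± 3.18 for the other genes (SD, n = 10). The share was lower with IGHJ3 in 10 of 10 animals, by 2.92 points (exact sign-flip permutation p = 0.00195, adjusted p = 0.0026). Reads with 1 sequenced copy made up 84.0% ± 3.07 with IGHJ3 and 83.9% ± 2.05 with the other genes. The part of PCR or sequencing errors among the clonotypes with 1 read was not tested. The 10 largest clonotypes held 17.03% ± 7.07 of the IGHJ3 reads of an animal and 11.9% ± 6.24 of the other reads. With fewer reads in the class, a fixed number of clonotypes holds a larger share, so these last values are no comparison of clone sizes. HuD and DNP animals had 71.2% ± 2.95 and 69.3% ± 2.72 of IGHJ3 clonotypes with 1 read (exact permutation p = 0.317).

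The most abundant IGHJ3 CDR3 of each animal is shown, since these loops hold the most reads. Each was private or almost private to its animal.
In DNP1: ARGGDGIWFAY
In DNP2: ARSDSYGFPY
In DNP3: ARPMDYYSGGFAY
In DNP4: ATSPGPNWFAY
In DNP5: ARLGWHGWFAY
In HuD1: ATEDYGLTGFAY
In HuD2: ARQDNYVGFAY
In HuD3: ARGILAY
In HuD4: ARQRGPSWFAY
In HuD5: TTYSDYATSPFAY
They held 2.47% to 8.13% of the IGHJ3 reads of their animals. ARGGDGIWFAY had 2573 reads in DNP1 and none elsewhere, and 99.8% of them used IGHV1-43. ARLGWHGWFAY had 1540 reads in DNP5 and 8 in DNP2, with IGHV4-2 in 99.2%. For other loops the IGHV gene was less settled, as ATSPGPNWFAY was read with 25 IGHV genes and its leading gene, IGHV5-19, held 44.1%.

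Around each of these loops lay close variants. CDR3 of the same length with at most 2 replaced residues numbered 37 to 144 for the 10 loops. Of the IGHJ3 reads of an animal, 84.0% ± 3.07 (SD, n = 10) had 1 sequenced copy. The part of PCR or sequencing errors among these variants was not tested. For 7 of them, 99.5% to 100% of the reads of the loop and its variants lay in the same animal, and for ARQRGPSWFAY 93.1% did. The exceptions were ARGILAY, a loop of 7 residues with variants in all 10 animals, and ARGGDGIWFAY. Around ARGILAY, 1014 of the 1030 reads in DNP4 were ATGTLAY, a loop named below. Of the 7497 reads within 2 replacements of ARGGDGIWFAY, DNP1 held 4683, DNP4 2077, DNP3 720 and DNP5 12. DNP2 held none, and the HuD animals together held 5. IGHV1-43 was used by 83.2% of these reads.

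Sharing of loops between animals was rarer for IGHJ3 than for the other genes pooled, while IGHJ4 alone had a lower share. Of the 50286 unique IGHJ3 CDR3, 1.76% were present in at least 2 animals, against 2.51% of 172774 for the other genes. Within an animal, 4.50% ± 1.25 of its IGHJ3 CDR3 were found with IGHJ3 in another animal, and 6.51% ± 1.52 of the others (SD, n = 10). The difference was -2.01 points, in 10 of 10 animals (exact sign-flip permutation p = 0.00195, adjusted p = 0.0026). Animals that share a CDR3 share this value, and an animal held fewer CDR3 with IGHJ3 (5148.5 on average) than with the other genes (17917.8), whose part in the difference was not tested. At the CDR3 lengths of IGHJ3, the others came to 5.67% ± 1.37 together, and singly IGHJ1 to 8.86% ± 2.14, IGHJ2 to 5.32% ± 1.43 and IGHJ4 to 4.38% ± 1.49, about level with IGHJ3. Gene by gene, 5.98% of IGHJ1, 7.48% of IGHJ2 and 3.43% of IGHJ4 loops were shared.

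Short loops were shared most. With IGHJ3, 18.8% of CDR3 of 7 residues were found in another animal, 9.52% at 9 residues, 3.97% at 11 and 2.19% at 13. The other genes had 20.1%, 13.6%, 4.97% and 2.63% at these lengths. At 14 residues the order was the reverse, with 2.57% ± 2.11 for IGHJ3 and 1.64% ± 0.766 for the other genes. The 5 IGHJ3 loops present in most animals had 5 to 9 residues.
In 9 animals: ARGFAY
In 8 animals: ARGAY
In 8 animals: ARGGFAY
In 8 animals: ARGDWFAY
In 7 animals: ARRGAAFAY
ARGFAY was missing from HuD1 only, with 1 to 4 reads in each of the others, 17 reads in all. ARGAY had 64 reads in DNP1 and 50 in HuD4 and at most 4 elsewhere, and 140 further reads of it carried other IGHJ genes. No IGHJ3 CDR3 was present in all 10 animals.

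Animals of the same antigen overlapped more on average than animals of different antigens, though single pairs did not all follow this. The overlap was measured as the VDJTools F value, the geometric mean of the read shares that common CDR3 hold in both animals. For IGHJ3 its median was 2.03% over the 10 pairs of DNP animals, 1.83% over the 10 HuD pairs and 0.387% over the 25 mixed pairs. On the scale of -log10 of the overlap, mixed pairs lay 0.629 further apart (exact permutation test over animals, one-sided, p = 0.00794, the smallest possible). For the other genes the medians were 5.43%, 5.34% and 2.12%, with a difference of 0.478 (exact permutation p = 0.00794). Whether the difference is larger for IGHJ3 was not tested. The pairs DNP3 with DNP4 (28.6%) and DNP2 with DNP5 (15.2%) stood far above the next pair (4.65%), and the same pairs led with the other genes (35.6% and 19.0%). DNP2 overlapped little with DNP3 (0.106%), DNP1 (0.504%) and DNP4 (0.610%), of which the first lay below the median of the mixed pairs. The highest mixed pair, DNP2 with HuD5, reached 2.56%, above the median of either antigen. Without single animals the difference for IGHJ3 was 0.538 (without DNP5) to 0.756 (without DNP2). Its p stayed at the smallest possible value in each case, and leaving out both high pairs together was not tested.

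**Figure D5:**
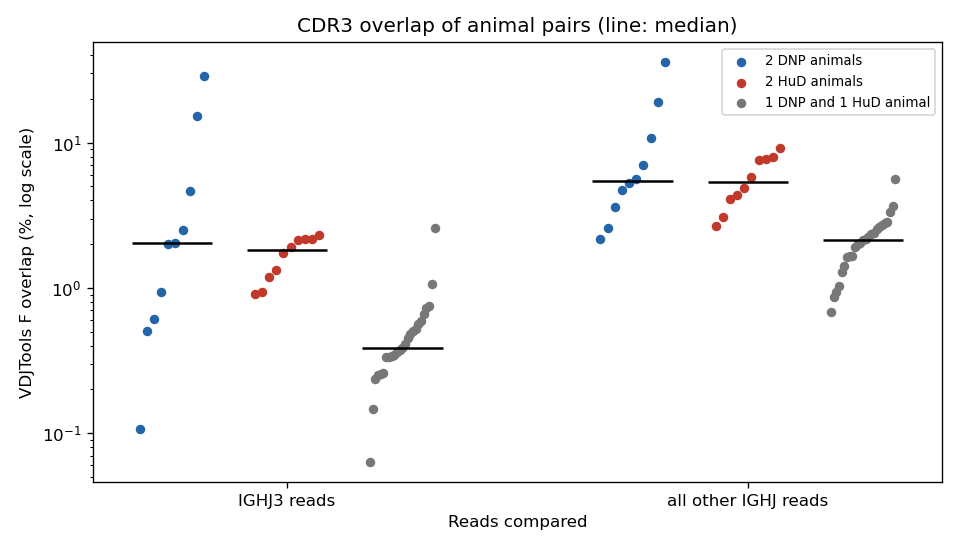
VDJTools F overlap of CDR3 (%, log scale, y axis) for the 10 pairs of DNP animals (blue), the 10 pairs of HuD animals (red) and the 25 mixed pairs (grey), for IGHJ3 reads on the left and all other IGHJ reads on the right. Lines are medians, which for IGHJ3 are 2.03%, 1.83% and 0.387%.

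Some IGHJ3 loops occurred in at least 2 animals given the same antigen and in no animal given the other. They numbered 324 for HuD and 211 for DNP, of 50286 unique IGHJ3 CDR3. Among the 172774 unique CDR3 of the other genes the numbers were 1333 and 898, so such loops were not particular to IGHJ3. Of the IGHJ3 loops of HuD, 39 were in 3 animals, 17 in 4 and 1 in all 5. Of those of DNP, 19 were in 3, none in 4 and 2 in all 5. HuD animals also held more IGHJ3 reads (236782 against 155731). The counts rest on single reads and animals. With at least 2 reads in each animal they were 91 and 64, without DNP4 the DNP count was 89 and without DNP3 140, and without HuD2 the HuD count was 175 and without HuD4 212.

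The 5 loops of each antigen that were present in most of its animals are shown.
HuD, 5 animals: TREGAY
HuD, 4 animals: ARHGIYNNYGWFAY
HuD, 4 animals: ARHELPGYNWFAY
HuD, 4 animals: ARHGNNYGWFAY
HuD, 4 animals: ARHGVYNNYGWFAY
DNP, 5 animals: TTDAAY
DNP, 5 animals: ARPDY
DNP, 3 animals: ATGTLAY
DNP, 3 animals: ARGSDGVWLAY
DNP, 3 animals: ARGGYGIWFAY
These loops were chosen for this pattern, so their restriction to an antigen is a description. ARHGIYNNYGWFAY had the most reads of the HuD loops, 491 in HuD1, 162 in HuD2, 86 in HuD3, 235 in HuD4 and none in HuD5. All 974 reads named IGHD1-10, and the leading IGHV gene, IGHV5S23, held 44.7%. Within 2 replacements lay 189 loops with 1770 reads, 612 in HuD1, 240 in HuD2, 115 in HuD3, 785 in HuD4 and 18 in HuD5. No such loop was read in a DNP animal, 0 of 155731 IGHJ3 reads. Over the pooled reads this allows a share of up to 0.00193%. ARHGVYNNYGWFAY is 1 of these variants, and ARHGNNYGWFAY has the same last residues in a shorter loop. For ARHGIYNNYGWFAY and ARHGVYNNYGWFAY the absence was fixed by the choice, so the limit is no evidence of a restriction.

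TREGAY was in all HuD animals with 26 reads in HuD3, 9 in HuD4 and 1 each in the other three, but loops within 1 replacement of it were also read in 4 DNP animals. Variants of ARHGNNYGWFAY and ARHELPGYNWFAY within 2 replacements were read in 3 and 4 DNP animals, with 1 to 6 reads each. Among the DNP loops, TTDAAY had 637 reads in DNP4, 65 in DNP3, 21 in DNP1 and 1 each in DNP2 and DNP5, and its variants within 1 replacement were read in HuD1, HuD2 and HuD3 with 1, 1 and 6 reads. ATGTLAY and ARGSDGVWLAY had 1014 and 715 reads in DNP4 and 1 read in each of their other 2 animals. Variants of ATGTLAY within 2 replacements had 1795 reads in HuD3 and 3 to 8 in each other HuD animal, whereas those of ARGSDGVWLAY had none. Of the 1795 reads, 1671 were ARGILAY, the most abundant IGHJ3 loop of HuD3, which differs from ATGTLAY at 2 residues. Its leading IGHV gene was IGHV5-29, and that of ATGTLAY was IGHV5-25. ARPDY had 54 IGHJ3 reads and 3860 reads with other IGHJ genes, so with IGHJ3 it was a minor form. Its variants within 1 replacement were read in all 5 HuD animals, with 2 to 5 reads each. Within 2 replacements, each HuD animal held 16 to 140 reads for ARPDY and 8 to 92 for TTDAAY. For ARGGYGIWFAY, HuD1, HuD2 and HuD3 held 1, 4 and 1. Each DNP animal held 1 to 79 reads within 2 replacements of the HuD loop TREGAY. ARGSDGVWLAY and ARGGYGIWFAY used IGHV1-43 in 98.9% and 98.2% of reads, like ARGGDGIWFAY, the largest IGHJ3 loop of DNP1.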

How the data were processed

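Heavy chain variable domains were sequenced from splenocyte RNA of 10 rats, with 1 library per animal on the same MiSeq run. The authors merged read pairs with PEAR, collapsed them with MIGEC by a molecular tag completed with a CDR3 section, and annotated them with High-VQuest. For these steps, versions and the germline set were not given in the sources used here. The files deposited by the authors hold a count beside each collapsed sequence, its number of sequenced copies. Here a collapsed sequence was 1 read, and these counts served as an alternative unit.

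Genes, residues and the productive call were used as deposited, and the first gene listed was taken. The IGHJ3 group, the lists and the tests were chosen with earlier results of these data known. Animals were grouped by immunogen and number from the labels.

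Values per animal were compared between antigens by exact permutation of the labels (two-sided, smallest p 0.00794) and within animals by exact sign-flip permutation (smallest p 0.00195), with Benjamini-Hochberg adjustment over 5 and 4 comparisons. The overlap test was one-sided. IGHV and IGHD read numbers of genes with at least 100 reads were fitted with edgeR 4.0.16 (R 4.3.3), with the animal as block for IGHJ3 against other reads, and p-values were adjusted over all genes tested at a threshold of 0.05. The SE was taken from the log2 difference and its F statistic. Alternatives used limma 3.58.1 (prior count 2) and DESeq2 1.42.0. The fits were tested on simulated data. Other values were computed in Python 3.11.15 with pandas 2.3.3, scipy 1.17.1 and numpy 2.4.6, and plots with matplotlib 3.10.9.

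Named genes were the 10 IGHV and 5 IGHD genes with the highest mean share of IGHJ3 reads, up to 10 called IGHV genes with the largest difference, and the 3 IGHV genes most like IGHJ3 among the 30 most frequent. Named CDR3 were the most abundant of each animal, the 5 in most animals and up to 5 per antigen. Germline sequences and coordinates of IGHJ3 were not used here.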

Additional observations from a re-analysis of the deposited data

Results flagged for a closer look

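The share of the ending WFAY among IGHJ3 reads was 22.2% in DNP2, against 34.8% to 39.3% in the other 4 DNP animals. DNP2 lay further from its group than the 95% limit of Dixon's test allows, which chance does for about 1 group in 20. The excess in CDR3 length of IGHJ3 over other reads differed between HuD and DNP animals by 0.581 residues, and by 0.432 residues after removal of the gene's own ending (exact permutation p = 0.0476 for each, unadjusted). Among unproductive reads, which were outside the comparisons, IGHJ3 made up 21.5% ± 2.35 (SD, n = 10), or 30117 reads. This was lower than among productive reads in 9 of 10 animals. The unproductive IGHJ3 share was 3.35 points higher in HuD than in DNP animals (exact permutation p = 0.0238, unadjusted).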

How the results depend on the processing

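Of 237 alternative values of the main comparisons, 205 kept their direction and call, or lay within 1.5 times the count. The HuD minus DNP difference in IGHJ3 share passed the test with reads of at least 2 copies (7.50 points), with unproductive reads (3.35) and without HuD4 (3.74), and single animals left out gave 1.75 to 3.74. The difference in WFAY ending turned to -0.558 with at least 2 copies and to -0.798 over sequenced copies. The excess CDR3 length was 0.721 residues with at least 2 copies and missed the threshold (exact sign-flip permutation p = 0.0645). It was -1.36 against IGHJ1 and -0.646 against IGHJ4, and the length without the ending was -0.203 against IGHJ4. Loops of 1 antigen numbered 91 (HuD) and 64 (DNP) with at least 2 reads, and 175 to 349 and 89 to 219 with an animal left out.

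Called IGHV genes in the pairing numbered 11 to 21 under all alternatives. The median log2 difference over genes was -0.34, with -0.09 with DESeq2 and -0.047 over clonotypes. IGHV5-31, near 0, turned to 0.18 with DESeq2, 0.0013 with limma, 0.012 without a filter and 0.13 over clonotypes, with -0.17 to 0.11 for animals left out. IGHV5-29 turned to -0.045 with reads naming a single gene and -0.17 with the most frequent genes of each CDR3, with -0.037 to 0.12 for animals left out, and IGHV5-22 to 0.029 over clonotypes. None of these passed the threshold. Called IGHD genes numbered 4 with DESeq2, 4 with library totals only, 1 with the most frequent genes of each CDR3 and 0 to 1 with an animal left out.

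Between the antigens, called IGHV genes among IGHJ3 reads numbered 5 with DESeq2, 2 with library totals only, 13 with limma, 4 without a filter, 2 with the most frequent genes of each CDR3 and 0 to 14 with an animal left out, 14 of them without DNP2. With the animal number as replicate block, 7 were called. Same-numbered animals are different animals, and their deviations correlated between -0.054 and 0.20 over 63 genes, so the numbers did not pair them. In the replicate block, the other 5 differences between antigens kept their values, of which the IGHJ3 share of 2.73 points had an exact sign-flip permutation p of 0.25, with 0.0625 the smallest that 5 pairs allow. Where the cause of a change is not given by the alternative itself, the cause was not tested. Alternatives against single IGHJ genes, with unproductive reads and with the most frequent genes of each CDR3 were chosen after seeing the data.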

Other observations

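The loops of IGHV1-43 joined to IGHJ3 had a recurring form in DNP1, DNP3 and DNP4, described here with no test because it was noticed in the named sequences. Loops of 11 residues that begin with ARG, have tryptophan at residue 8 and end with AY made up 60.7% of the IGHV1-43 reads with IGHJ3 in DNP1, 42.3% in DNP3 and 24.3% in DNP4. In DNP5 the share was 0.793%, although 86.5% of its reads with these genes also had 11 residues. DNP2 had no such read among 59. The HuD animals had none among 1859 IGHV1-43 reads with IGHJ3, of which HuD5 held 1280 and each other HuD animal 119 to 165. The pooled reads allow a share of up to 0.161%. The form was noticed in loops partly chosen for their absence from HuD animals, so this limit is no evidence of a restriction. Among the IGHJ3 reads of an animal with other IGHV genes, loops of this form made up 0.0102% to 0.806%. This share was highest in DNP1 (0.806%), followed by HuD2 (0.645%) and DNP4 (0.524%), so with other IGHV genes the form was not limited to DNP animals. DNP1, DNP3 and DNP4 held 23, 16 and 30 different loops of this form.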
